A study of Ovis aries with 30 samples.

Results

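The 5 endothelial genes FLT1, KDR, TIE1, PECAM1 and NOS3, of 848 genes that could be named on the array, were followed in the epicardial adipose tissue of sheep, the fat that lies on the surface of the heart. Every array probe whose gene name or description in the scanner files gave the symbol or full name of one of the genes was taken, which found 13 of the 15008 non-control probes on the array. For 4 of them, both TIE1 probes and a pair of KDR, the name field held a gene ID that the RefSeq gene table gives to the gene. FLT1 had 5 probes, KDR 4, TIE1 2, PECAM1 1 and NOS3 1. RNA from 30 animals was hybridised to a 1-colour Agilent array, 1 animal per array, so each value is a level in whole tissue on the log2 intensity scale. Control fetuses (n = 8) were term fetuses of untreated ewes. CORT fetuses (n = 6) were term fetuses of ewes infused with cortisol at 1 mg/kg per day from gestational day 115 to term. Control lambs (n = 7) were 2 weeks old and born to untreated ewes, and CORT lambs (n = 9) were 2 weeks old and born to ewes infused at 0.5 mg/kg per day over the same part of gestation. No fetus or lamb was infused itself, and the lambs' exposure ended at delivery. The lamb groups included twins. The labels do not tie lambs to ewes, so the tests treat animals as independent and their p-values measure only the spread between animals. The doses differed between the ages, and the labels warn that the CORT groups of the 2 ages are not directly comparable. The study states that the lambs' ewes were infused only overnight, and describes the infusion at 1 mg/kg per day in its earlier work as continuous.

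Endothelial cells line every blood vessel, and adipose tissue is densely vascularised. Vascular endothelial growth factor A (VEGFA) binds KDR (VEGFR-2), the main signalling receptor for endothelial growth, and FLT1 (VEGFR-1), which binds the ligand tightly, signals weakly and also exists as a secreted soluble form that traps the ligand. TIE1 is an orphan receptor that acts with TEK, the angiopoietin receptor, PECAM1 (CD31) is an adhesion molecule at endothelial junctions, and NOS3 is the endothelial nitric oxide synthase. In whole tissue, fewer endothelial cells and less RNA per endothelial cell cannot be told apart.

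The probes of FLT1 come from 3 source sequences, called A, B and C here, and those of KDR from 2, called A and B. Probes of the same source sequence are numbered in order along it, so FLT1 A1 and A2 are array probes A_70_P026322 and A_70_P026321, and FLT1 C is A_70_P026631. The file descriptions call FLT1 B1 and B2 (A_70_P026602 and A_70_P026601) soluble VEGFR-1. Whether they read the soluble form only was not settled. KDR A1 and A2 are A_70_P026597 and A_70_P026596, KDR B1 and B2 are A_70_P041632 and A_70_P041631, and TIE1 probes 1 and 2 are A_70_P002717 and A_70_P002716. PECAM1 was read by A_70_P017976 and NOS3 by A_70_P017111. The sequences of the probes on which the results turn are given here as the scanner files hold them, each 60 bases long, with capitals for the bases that a probe shares with the overlapping probe of its source sequence.
FLT1 A1: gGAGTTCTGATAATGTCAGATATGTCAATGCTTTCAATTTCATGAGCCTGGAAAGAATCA
FLT1 A2: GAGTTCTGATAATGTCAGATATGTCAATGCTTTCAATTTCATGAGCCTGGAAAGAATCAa
FLT1 C: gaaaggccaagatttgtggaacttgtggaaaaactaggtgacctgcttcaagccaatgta
KDR A1: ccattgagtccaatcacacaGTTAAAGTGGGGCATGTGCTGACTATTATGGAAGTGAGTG
KDR A2: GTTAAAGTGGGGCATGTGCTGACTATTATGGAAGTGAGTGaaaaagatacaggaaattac
KDR B1: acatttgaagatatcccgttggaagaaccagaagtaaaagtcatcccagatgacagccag
KDR B2: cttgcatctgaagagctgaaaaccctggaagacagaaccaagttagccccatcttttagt
NOS3: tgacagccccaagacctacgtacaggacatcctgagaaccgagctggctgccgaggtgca
FLT1 A1 and A2 are thus the same probe shifted by 1 base, with 59 bases in common. KDR A1 and A2 are shifted by 20 bases and share 40, while KDR B1 and B2 lie on 1 source sequence and share none. The longest run that any of the 13 probes had in common with a probe of another of the 5 genes was 8 bases. The probes of a gene need not move together, and so every probe was read separately.

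All 13 probes passed the filter on dim probes, but not all were equally far above background. The probes FLT1 C, KDR A1, A2, B1 and B2, TIE1 1 and 2, PECAM1 and NOS3 were well above background, by the scanner software's test, on all 30 arrays. FLT1 A1 and B1 were so on 25 arrays each, FLT1 A2 on 13, and FLT1 B2 on 3. FLT1 B2 was not well above background in any of the 7 Control lambs, so its measured means are given there without a fold change or a call. The log2 values carry an offset of 50 intensity units added at background correction, which shrinks the differences of dim probes such as those of FLT1.

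Arrays of the same group correlated between 0.957 and 0.993 over all probes, and genes of fat cells (FABP4, LPL and PPARG) were well above background on every array. Of 28 endothelial marker genes, 11 had a probe. Single animals stood apart in 2 of the groups. Control fetus 2 had the lowest level of its group for 7 of the 13 probes, namely all those of KDR and TIE1 and the NOS3 probe. The skeletal muscle troponin TNNC2 was at 17.20 in that animal and between 6.90 and 7.55 in the other Control fetuses. Its level of the muscle gene MB, 14.79, lay within theirs, 12.98 to 15.20. Of its adipocyte genes FABP4 lay above the other Control fetuses, UCP1 within their range, and PLIN1, PLIN2, LEP, LPL and PPARG below it. The fibroblast genes COL1A1, COL1A2, COL3A1 and DCN also lay below it. Control lamb 1 was the lowest of its group for 7 of the 13 probes as well. Its FABP4 level was 14.85 against 11.82 to 14.07 in the other Control lambs, and its TNNC2 level was 8.82 against 6.84 to 8.08. Other genes of these lists differed. UCP1 was also above the other Control lambs, but LEP, at 8.68 against 8.73 to 9.71, was below them. PLIN1, PLIN2, LPL and PPARG lay within their ranges, as did MB, at 14.72 against 9.61 to 16.89. Results that rest on either animal are also given without it.

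**Figure D1:**
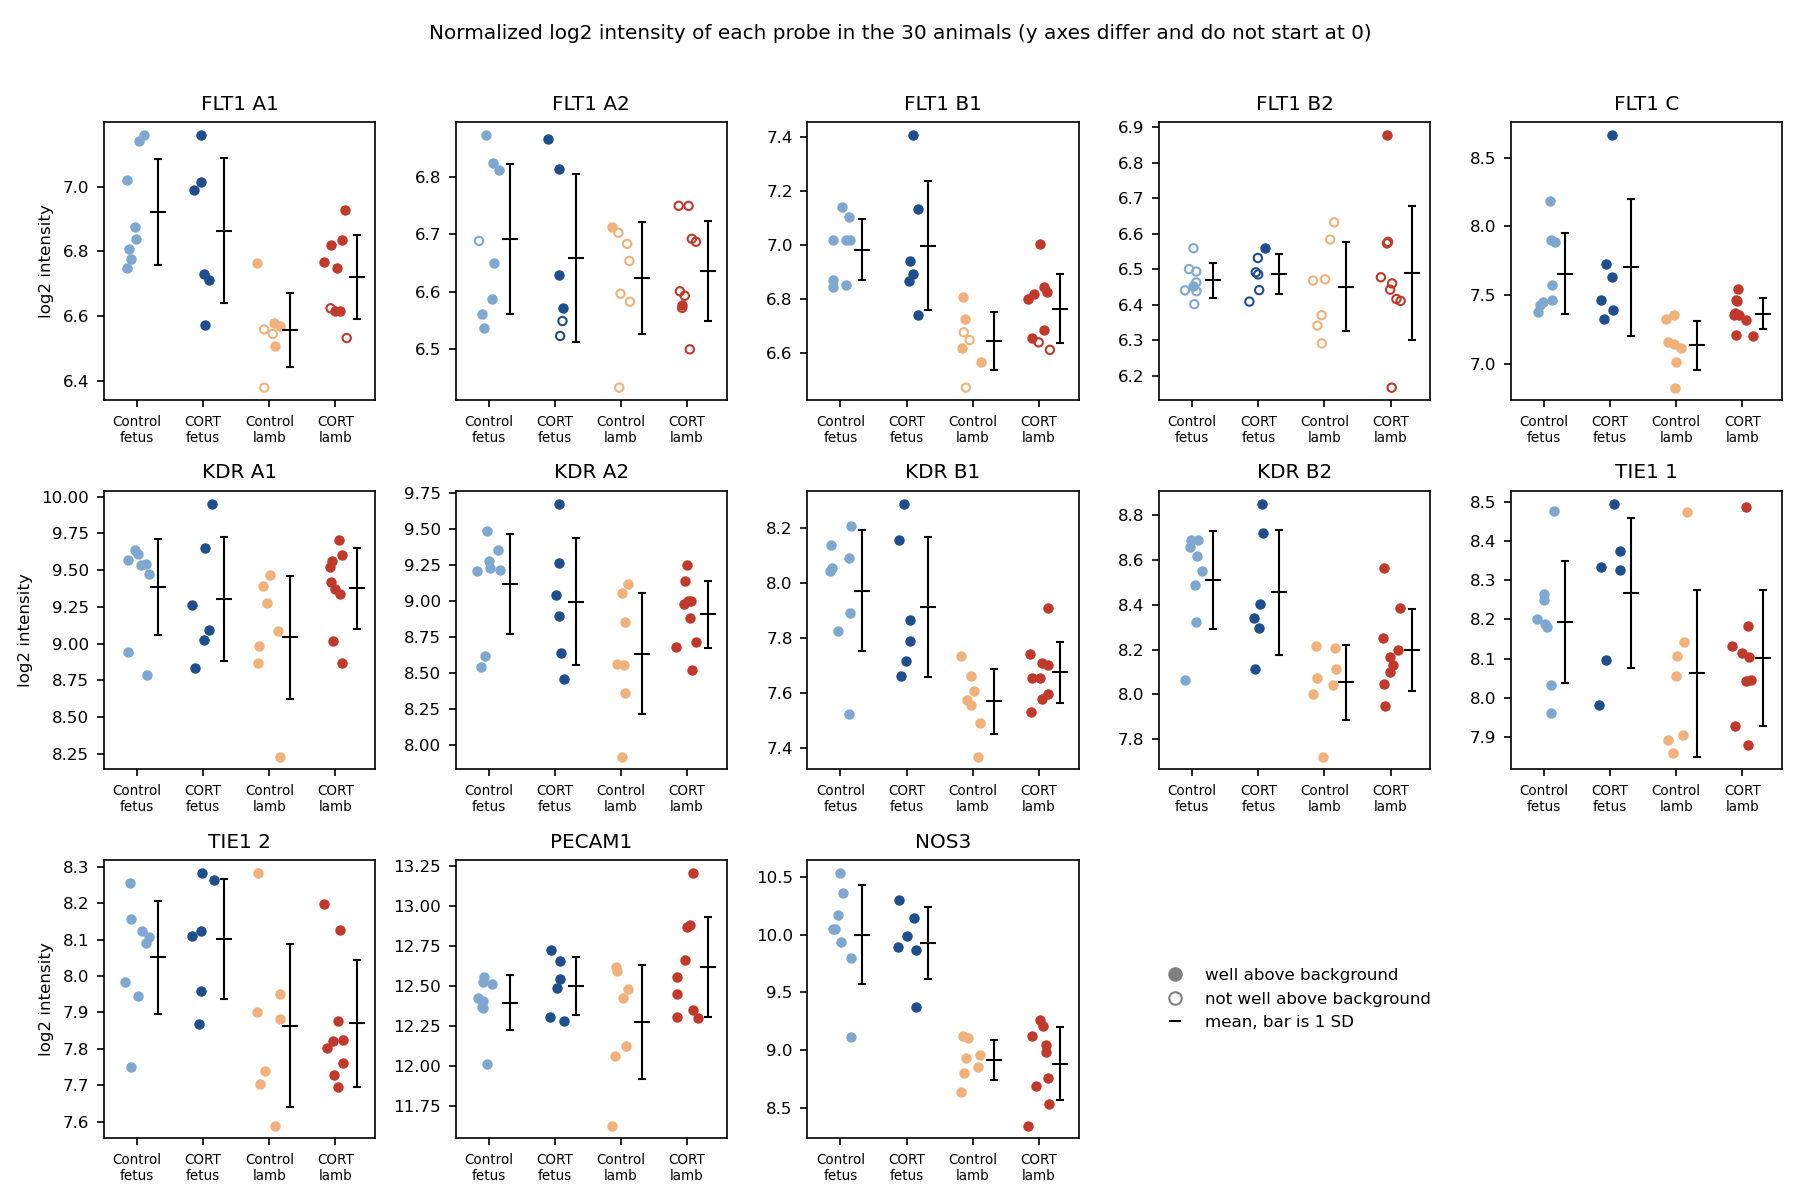
Log2 intensity of the 13 probes in each animal of the 4 groups, 1 panel per probe, with the group mean as a line and the SD as a bar. All Control fetuses lie above all Control lambs for FLT1 B1 and FLT1 C, and all but Control fetus 2 do so for NOS3, while the PECAM1 and TIE1 groups share most of their ranges.

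The levels of untreated lambs and untreated fetuses were compared first. All 13 probes were lower in Control lambs than in Control fetuses, and 7 of them passed the adjusted test (limma, Benjamini-Hochberg over 13077 probes), against 21.0% of all tested probes that passed in the same direction. Of the 13077 probes 6706 were lower. The 13 include FLT1 B2, which was near background and is not read as a change. In either direction 40.9% of the tested probes passed, so the change with age was broad. The median log2 change was -0.34 over the 13 probes and -0.01 over all tested probes. The probes that passed belonged to NOS3, FLT1 and KDR. FLT1 and KDR have several probes each, some of them overlapping, so the 13 probes are not independent counts. By the brightest probe of each gene, all 5 genes were lower and 2 passed, NOS3 and FLT1, beside the same 21.0% of all tested probes. All fetuses and all lambs were on different slides, so a difference between their slides cannot be told apart from one of age. The probe calls of FLT1 A1, B1 and C, KDR B1 and B2 and NOS3 were kept with slide as a random block. That setting cannot remove a shift shared by all slides of one age.

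NOS3 had the largest difference of the 5 genes. Its log2 intensity was 9.11, 10.05 and 10.54 (lowest, median and highest) in Control fetuses and 8.63, 8.93 and 9.12 in Control lambs. All 7 lambs lay below the mean of the fetuses, and the groups overlapped only through Control fetus 2, the next fetus being at 9.80. The mean fell by 1.09 (SE 0.16) on the log2 scale and fell by 52.9% on the intensity scale, with an adjusted p of 5.29e-05 in limma and an exact two-sided permutation p of 0.000466. Without Control fetus 2 the change was -1.21 (limma adjusted p = 5.91e-07). In the CORT fetuses NOS3 was at 9.37, 9.94 and 10.30 and in the CORT lambs at 8.34, 8.98 and 9.26. The order from high to low was Control fetus, CORT fetus, Control lamb and CORT lamb, and within each age the groups did not differ beyond their spread.

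FLT1 C was at 7.38, 7.52 and 8.18 in Control fetuses and at 6.83, 7.14 and 7.36 in Control lambs. The groups did not overlap. The mean fell by 0.52 (SE 0.12) on the log2 scale and fell by 30.4% on the intensity scale, with an adjusted p of 0.00243 in limma and an exact permutation p of 0.000311. FLT1 B1, described as soluble VEGFR-1, also separated the groups, with 6.85, 7.02 and 7.14 in Control fetuses against 6.47, 6.65 and 6.81 in Control lambs. Its mean was lower by a log2 change of -0.34 (SE 0.06, limma adjusted p = 0.000415). FLT1 C and B1 were the 2 of 13 probes whose lambs all lay below all fetuses, against 8.37% of all tested probes. FLT1 A1 changed by -0.36 (SE 0.08, limma adjusted p = 0.00104). In the Control lambs A1 and B1 were each well above background on only 4 of 7 arrays.

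The remaining FLT1 probes did not pass. FLT1 A2, although it shares 59 of its bases with A1, changed by -0.07 (limma adjusted p = 0.430), and FLT1 B2, near background, had measured means of 6.47 in Control fetuses and 6.45 in Control lambs. The FLT1 values depended on the scaling more than those of the other genes. When arrays were scaled to their 75th percentile instead of quantile normalized, the median of all probes moved to 0.15, FLT1 A1 and B1 stood at -0.12 each and no longer passed (limma adjusted p = 0.317 and 0.215), and FLT1 A2 stood at 0.21. With the intensity that the scanner software had corrected, which carries no offset, the changes were larger, at -0.96 for A1, -0.80 for A2, -0.94 for B1 and -0.80 for C, and A2 passed. FLT1 C passed under both, with -0.43 under the percentile scaling.

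KDR was lower in lambs at each of its 4 probes, and 3 of them passed. KDR B2 was at 8.07, 8.58 and 8.69 in Control fetuses and at 7.72, 8.08 and 8.22 in Control lambs. All 7 lambs were below the mean of the fetuses, and the ranges met through the lowest fetus. The log2 change was -0.46 (SE 0.10, limma adjusted p = 0.00140) at KDR B2 and -0.40 (SE 0.09, limma adjusted p = 0.00215) at KDR B1. KDR A2 changed by -0.48 (SE 0.18, limma adjusted p = 0.0430). KDR A1 had a log2 difference of -0.34 (SE 0.18) and missed the threshold (limma adjusted p = 0.139). Without Control fetus 2, KDR A1 passed at -0.43 (limma adjusted p = 0.0496), while KDR A2 lost its call without Control lamb 1, at -0.36 (limma adjusted p = 0.0895). The call of KDR A2 held in 5 of 9 alternatives and in 5 of the 15 fits that left out 1 animal. Both source sequences of KDR thus gave differences of the same sign, with a wider spread at source sequence A.

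TIE1 and PECAM1 did not pass. TIE1 probe 1 was at 7.96, 8.19 and 8.48 in Control fetuses and at 7.86, 8.06 and 8.47 in Control lambs, ranges that nearly coincide. The log2 differences were -0.13 for probe 1 and -0.19 for probe 2 (limma adjusted p = 0.282 and 0.131). PECAM1 was at 12.01, 12.41 and 12.55 in Control fetuses and at 11.62, 12.42 and 12.62 in Control lambs, with a difference of -0.12 and a 95% interval from -0.40 to 0.16 (limma adjusted p = 0.503). Whether the changes of NOS3 and PECAM1 differ from each other was not tested.

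**Figure D2:**
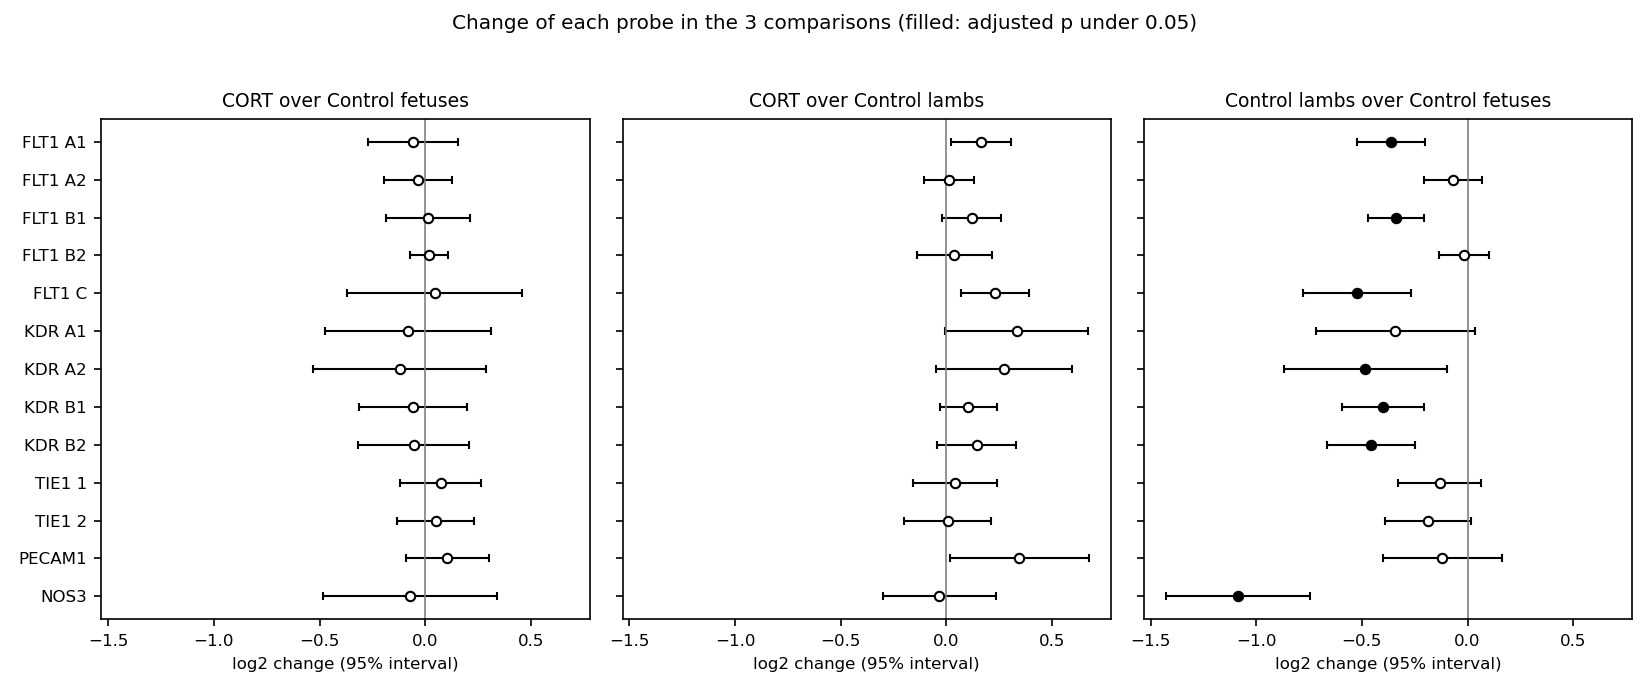
Log2 change of each of the 13 probes with cortisol in the lambs, with cortisol in the fetuses and from Control fetuses to Control lambs, with 95% intervals; the vertical line marks no change. NOS3 has the largest change with age, at -1.09, and in the fetuses the changes of all probes lie between -0.12 and 0.11.

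Markers of other cells also moved with age. All 4 fibroblast genes measured rose in Control lambs, with COL1A1, a collagen chain, at a log2 change of 1.71 (limma adjusted p = 6.28e-06). The summed fibroblast level had a median of 42985 intensity units, from 27778 to 53184, in Control fetuses and of 95295, from 84616 to 104508, in Control lambs. Of 7 adipocyte genes 1 rose and 1 fell, with a median log2 change of 0.26. LPL, which releases fatty acids from circulating lipid, rose by 1.81 (limma adjusted p = 2.44e-06), and UCP1, the uncoupling protein of brown fat, fell by 4.19. The summed endothelial level, over 11 of 28 genes and dominated by the bright PECAM1 probe, had a median of 8667 (7187 to 9498) in Control fetuses and 8027 (5279 to 8893) in Control lambs. The part of these shifts in the results of the 5 genes was not tested.

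The second question was whether lambs of cortisol-infused ewes differed from Control lambs. At 2 weeks, 12 of the 13 probes were higher in CORT lambs, with a median log2 change of 0.12 against -0.00 over all tested probes. Of the 13077 tested probes 6476 were higher. The 12 include FLT1 B2, near background, and FLT1 A2 and TIE1 probe 2, at 0.01 each. No member probe passed the adjusted test, and neither did any probe on the array (0% of 13077 in limma). Before adjustment, at the threshold of 0.05 used in the study, 3 of the 13 passed, all higher, against 1.66% of all tested probes that were higher and 3.57% in either direction. They were FLT1 C, FLT1 A1 and PECAM1, so FLT1 counts more than once among them. By the brightest probe of each gene, 4 of the 5 genes were higher and 2 passed before adjustment, FLT1 and PECAM1. The study had picked FLT1 and KDR on these same lamb arrays, so the direction of those genes is not independent evidence.

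FLT1 C was at 7.20, 7.36 and 7.54 in CORT lambs, against 6.83, 7.14 and 7.36 in Control lambs. All 9 CORT lambs lay above the mean of the Control lambs, though the ranges overlapped. The log2 change was 0.23 (SE 0.08), 17.3% higher on the intensity scale, with an exact permutation p of 0.00577, an unadjusted limma p of 0.00777 and an adjusted limma p of 1.00. It was 0.26 on the first of the lambs' slides and 0.19 on the second, and 0.18 without Control lamb 1. FLT1 A1 was at 6.53, 6.75 and 6.93 in CORT lambs and at 6.38, 6.56 and 6.76 in Control lambs. Its log2 change was 0.16 (SE 0.07), with an exact permutation p of 0.0204, and 8 of 9 CORT lambs lay above the Control mean. The probe was well above background on only 4 of the 7 Control lamb arrays. FLT1 B1 had a difference of 0.12 (exact permutation p = 0.0656) and A2 of 0.01. B2 had measured means of 6.49 in CORT and 6.45 in Control lambs. The size moved with the background correction: A1 was at 0.55 and C at 0.33 with the intensity corrected by the scanner software, and at 0.45 and 0.35 in the authors' log2 values of the lambs.

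KDR had its larger differences and its larger spread at source sequence A. KDR A1 was at 8.87, 9.42 and 9.70 in CORT lambs and at 8.23, 9.08 and 9.47 in Control lambs. Its log2 difference was 0.33 (SE 0.16), with an exact permutation p of 0.0675, and 7 of 9 CORT lambs lay above the Control mean. Control lamb 1 is the lowest of these values. Without it the difference was 0.20, and KDR A2 moved from 0.27 to 0.16. KDR B1 and B2 had differences of 0.10 and 0.14 (exact permutation p = 0.0920 and 0.134). The difference at KDR A1 was 0.51 on the first of the lambs' slides, which held Control lamb 1, and 0.11 on the second.

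PECAM1 was at 12.30, 12.55 and 13.21 in CORT lambs and at 11.62, 12.42 and 12.62 in Control lambs. All 9 CORT lambs were above the Control mean, and the ranges overlapped. The log2 change was 0.35 (SE 0.16, unadjusted limma p = 0.0402), while the exact permutation p was 0.0570. Without Control lamb 1 it was 0.24 and no longer past the unadjusted threshold of 0.05. Within the lambs' slides it was 0.32 and 0.25.

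NOS3 and TIE1 showed little difference in lambs. NOS3 had a log2 difference of -0.03 with a 95% interval from -0.30 to 0.23, and the slides disagreed in sign, at -0.29 and 0.18. TIE1 probe 1 was at 7.88, 8.10 and 8.49 in CORT lambs, and its difference from the Control lambs was 0.04 with an interval from -0.16 to 0.24. TIE1 probe 2 gave 0.01. These intervals leave room for differences in either direction.

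Marker genes of other cells gave no adjusted call in CORT over Control lambs either. Before adjustment 1 of the 7 adipocyte genes passed, LEP, which encodes leptin, at 0.33, beside 3.57% of all tested probes. PLIN2, which coats lipid droplets, had a difference of -0.69 that just missed. Their part in the results of the 5 genes was not tested. The summed endothelial level had a median of 8600 intensity units (7541 to 12259) in CORT lambs, and the summed fibroblast level one of 96744 (45299 to 115514). Both ranges overlapped those of the Control lambs.

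In term fetuses at the higher maternal dose, 6 probes were higher and 7 lower in the CORT group, with log2 differences between -0.12 at KDR A2 and 0.11 at PECAM1. None of the 13 passed before adjustment, against 2.35% of all tested probes, and no probe on the array passed after it (0%, limma, with 307 probes past an unadjusted p of 0.05). FLT1 C was at 7.33, 7.55 and 8.67 in CORT fetuses, the highest value being that of CORT fetus 5, and its difference from Control fetuses was 0.04 with a 95% interval from -0.37 to 0.46. KDR A1 was at 8.83, 9.18 and 9.95, with a difference of -0.08 (-0.48 to 0.31). PECAM1 was at 12.28, 12.51 and 12.72, with a difference of 0.11 (-0.09 to 0.30). The interval of FLT1 C includes the lamb difference of 0.23, and the upper bounds of KDR A1 and PECAM1 lie just below their lamb differences of 0.33 and 0.35.

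The lamb difference less the fetal difference was positive for 6891 of the 13077 tested probes. Among the 13 probes it was positive for 11, with a median of 0.16. It passed for none of them, either adjusted or unadjusted, against 2.06% of all tested probes past the unadjusted threshold and 0% past the adjusted one. The smallest unadjusted limma p was 0.0703, for FLT1 A1 at 0.22 (SE 0.12). For KDR A1 the value was 0.42 with a 95% interval from -0.10 to 0.93. The ewes' doses differed between the ages, so this is a comparison of 2 exposures.

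Agreement between probes of a gene was measured over animals of one age after the group means had been subtracted, with permutation of animals within groups, for 17 pairs at 2 ages. Of the 34 correlations, 29 were positive and 17 passed by Pearson r after adjustment over the 34. Fewer passed by Spearman rho. Differences between slides were not subtracted, and their part in r was not tested. KDR agreed best. In the 14 fetuses its 6 pairs had Pearson r between 0.906 and 0.976, also between the 2 source sequences, which share no overlap. In the 16 lambs r was between 0.572 and 0.959. For KDR A1 and A2 in lambs r was 0.959 and Spearman rho 0.968 (permutation p = 1e-05 for both, the smallest that 100000 permutations can give), and r was 0.928 without the 2 animals farthest from the median. For KDR A1 and B2 in lambs r was 0.598 and rho 0.412 (permutation p = 0.0189 and 0.117), and r was 0.342 without those animals, so this relation rests on them. Leaving out the 2 farthest animals also lowered the lamb r of A1 with B1 from 0.664 to 0.443. It fell from 0.572 to 0.396 for A2 with B2 and from 0.764 to 0.486 for B1 with B2. For A2 with B1 it was 0.684 and then 0.650. By rho, A1 with B2 and A2 with B2 did not pass in lambs (permutation, adjusted p = 0.222 and 0.0986). The TIE1 probes had r = 0.924 and rho = 0.846 in fetuses (permutation p = 3e-05 and 0.00061). In lambs r was 0.754 and rho 0.629 (permutation p = 0.00344 and 0.0160), with r = 0.318 without the 2 farthest animals.

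The FLT1 probes agreed least. In fetuses r ranged from -0.349 to 0.687 and 3 of 10 pairs passed by r, those among A1, A2 and C. For A2 the Control fetuses on the first of the fetuses' slides, at 6.69 or higher, all lay above those on the second, at 6.65 or lower. The part of slide in these correlations was not tested. In lambs r ranged from -0.339 to 0.288 and none of the 10 passed. FLT1 A1 and A2, with 59 bases in common, had r = 0.643 in fetuses (permutation p = 0.0236, adjusted 0.0471) and r = -0.339 in lambs. Their rho in fetuses was 0.569 and did not pass (permutation, adjusted p = 0.101). In the Control lambs A1 was well above background on 4 of 7 arrays and A2 on 1 of 7, and in the CORT lambs on 7 and 1 of 9. The range of A2 over all 30 animals was 6.43 to 6.87, against 6.38 to 7.16 for A1. In the fetuses A2 was well above background on 7 of 8 Control and 4 of 6 CORT arrays. A2 in the lambs and B2 in all groups thus carried little signal over background. A1 was also dim in the Control lambs, with a mean of 6.56 there against 6.62 for A2.

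**Figure D3:**
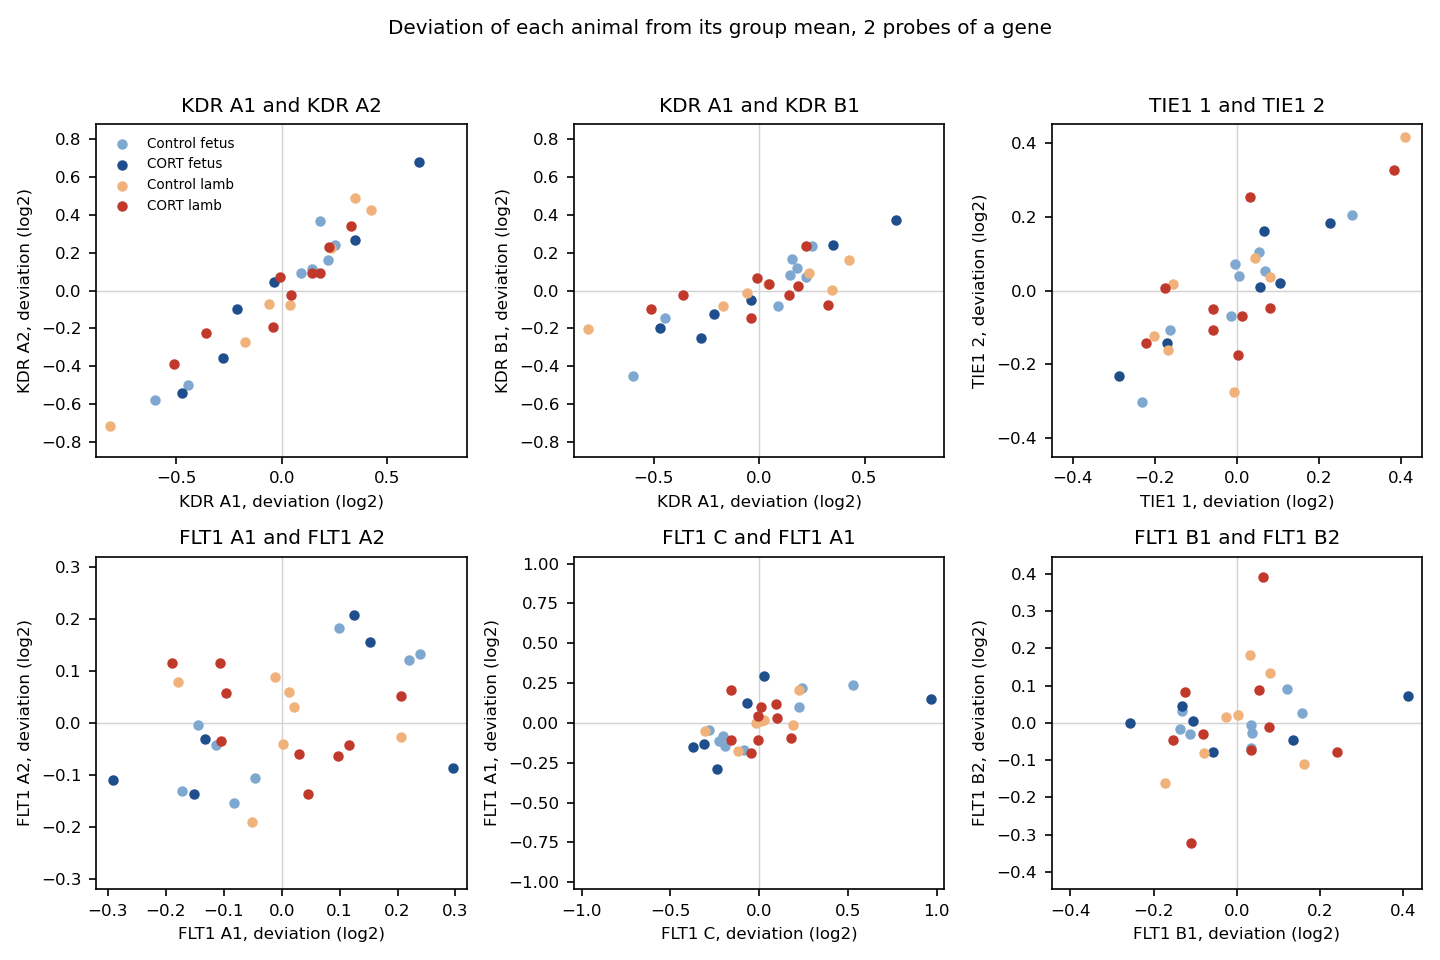
Deviation of each animal from its group mean (log2) for pairs of probes of the same gene, with fetuses and lambs marked separately. The KDR A1 and A2 deviations lie along a line at both ages, while those of FLT1 A1 and A2, which share 59 bases, do not in the lambs.

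When each gene was represented by the mean of its probes, the age difference was -0.26 for FLT1 (SE 0.06, limma adjusted p = 0.00214), -0.42 for KDR (SE 0.13, limma adjusted p = 0.0164) and -0.16 for TIE1 (limma adjusted p = 0.179). In lambs the cortisol difference of the mean was 0.11 for FLT1, 0.21 for KDR and 0.02 for TIE1, with unadjusted limma p-values of 0.0392, 0.0584 and 0.806. None of these passed after adjustment. The FLT1 means include the dim probes A2 and B2.

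Other genes of the vessel pathways were read from lists of 60 genes, of which 33 had a named probe and 32 were tested, each by its brightest probe. In Control lambs over Control fetuses 9 rose and 6 fell. Of all tested probes 40.9% passed in either direction, a share near that of these genes, so the count is no result about them. VEGFA, the ligand of FLT1 and KDR, fell by 0.83 on the log2 scale at one probe (limma adjusted p = 1.55e-05) and by 0.89 at its other probe. The VEGF co-receptor NRP2 rose by 0.14 at 1 of its 3 probes (limma adjusted p = 0.0491), and its others, at 0.13 and 0.06, did not pass. The co-receptor NRP1 had a difference of 0.31 (limma adjusted p = 0.0676). The ligand and some of the probes of FLT1 and KDR thus passed as lower in lambs, and no co-receptor probe did. The brightest KDR probe, A1, did not pass (limma adjusted p = 0.139). Whether the receptors and co-receptors differ from each other was not tested.

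Among the angiopoietin genes, ANGPT1, the activating ligand of TEK, fell by 1.00 (limma adjusted p = 4.15e-05). ANGPT2, which can oppose ANGPT1, had a log2 difference of -0.08 and TEK of 0.01, and neither passed. TIE1, the partner of TEK, did not pass either, as given earlier. Of the Notch genes, which govern vessel branching, the ligand JAG1 rose by 0.82 (limma adjusted p = 1.19e-06) and the receptor NOTCH1 by 0.40, while the ligand DLL4 fell by 0.16.

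Among the nitric oxide genes, NOS2, the inducible synthase, fell by 0.65 (limma adjusted p = 0.00415), and NOS3 was the other one that fell. CAV1, which binds and restrains NOS3, had a difference of -0.00, the chaperone HSP90AA1 of -0.05 and the kinase AKT1, which activates NOS3, of -0.11. GUCY1B1, a subunit of the nitric oxide receptor, had a difference of 0.22 (limma adjusted p = 0.0689). NOS1 was well above background in 3 of 8 Control fetuses and in no Control lamb. Of the hypoxia factors HIF1A rose by 0.34 (limma adjusted p = 0.0104). The brightest EPAS1 probe had a difference of 0.14 and did not pass, while 2 of its other probes did, at 0.25 and 0.28. ARNT had a difference of 0.10.

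Of the growth factor and vessel genes, the growth factor FGF2 rose by 1.01, its receptor FGFR1 by 0.42, the vasoconstrictor peptide EDN1 by 0.77, the matrix protease MMP14 by 0.53 and TGFB1 by 0.37. The pericyte-recruiting factor PDGFB fell by 0.38 and the endothelin receptor EDNRB by 0.23. Another PDGFB probe, at -0.08, and the other EDNRB probe, at -0.04, did not pass. The 4 MMP14 probes disagreed, one of them lying at -0.40. FGF7, AGTR2, FGF1, EDNRA, MMP2, AGTR1 and ACE did not pass, with log2 differences between -0.28 and 0.45, and MMP9 was too dim to be tested. Of the endothelial markers that are not among the 5 genes, 3 rose, EDN1 together with the adhesion molecules SELP (0.40) and VCAM1 (0.24), and the adhesion molecule SELE fell by 0.41. SELP was well above background in only 3 of 8 Control fetuses, and SELE in 5 of 7 Control lambs. Counting FLT1 and NOS3, 3 endothelial markers rose and 3 fell of 11, beside the same 40.9% of all tested probes.

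**Figure D4:**
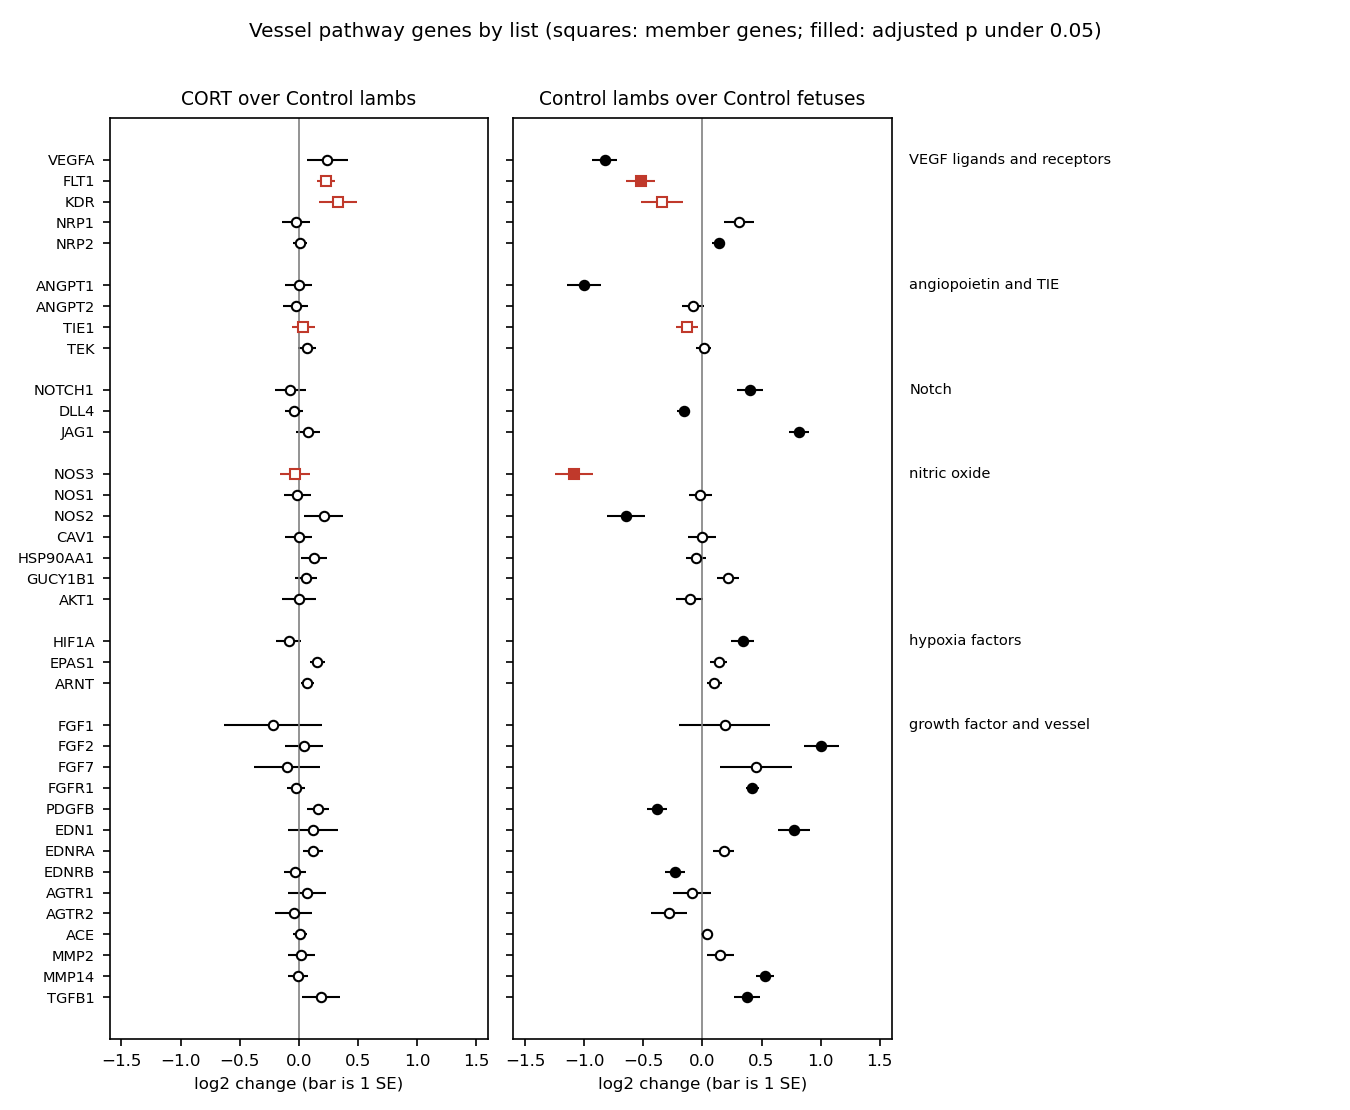
Log2 change, with 1 SE, of the brightest probe of each vessel pathway gene in CORT over Control lambs and in Control lambs over Control fetuses. Squares mark FLT1, KDR, TIE1 and NOS3, and filled marks an adjusted p under 0.05; with age the values run from -1.09 for NOS3 to 1.01 for FGF2, and in the lambs from -0.22 for FGF1 to 0.33 for KDR.

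With cortisol the pathway genes changed little. In lambs none of the 32 passed the adjusted limma test and 1 passed before adjustment, EPAS1, at 0.16 (unadjusted p = 0.0248), with its other probes between 0.07 and 0.14. Before adjustment 3.57% of all tested probes passed, a share near that of these genes, so the count is no result about them. VEGFA had a log2 difference of 0.24 and its other probe of 0.26, and neither passed. In fetuses none of the 32 passed before adjustment, against 2.35% of all tested probes.

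The named genes whose deviations from the group means were most like those of each gene were ranked over the 30 arrays among 736 named genes, as a description of arrays that share slides and processing. For KDR A1 they were KITLG (r = 0.764), H2AZ1 (r = 0.743) and PCNA (r = 0.707). For NOS3 they were CTSD (r = 0.808), NPC2 (r = 0.804) and CDKN1C (r = 0.715), and those for PECAM1 included CYTH2 (r = 0.748) and GJA4 (r = 0.738). For TIE1 probe 1 they were CD93 (r = 0.672), PSAP (r = 0.652) and GJA4 (r = 0.623), and for FLT1 C JAG1 (r = 0.693), FGF10 (r = 0.596) and BHLHE40 (r = 0.546). The upper 5% of all probes began at r = 0.427 for KDR A1, 0.518 for NOS3, 0.489 for PECAM1, 0.414 for TIE1 and 0.332 for FLT1 C. Among the 5 genes themselves r was 0.503 for TIE1 probe 1 and PECAM1 and 0.465 for TIE1 probe 1 and NOS3. With TIE1 probe 2 it was 0.274 for PECAM1 and 0.354 for NOS3. For NOS3, r was 0.608 with KDR B1 and 0.548 with KDR B2, but 0.292 with KDR A1 and 0.294 with KDR A2. Between KDR A1 and FLT1 C, probes of the 2 VEGF receptors, r was 0.0934.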

How the data were processed

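The deposited scanner files give, for each spot, the mean foreground and median local background intensity of the green channel (Agilent Feature Extraction 10.1.1.1, per the submitters' processing notes). The authors also deposited log2 values after background correction and quantile normalization in limma. Their lamb columns followed the scanner values (Spearman rho 0.9996 to 0.9998 per array) and served as an alternative, whereas their fetal columns did not (rho -0.00837 to -0.00385) and were not used.

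Background was corrected by normexp with an offset of 50, and quantile normalization over all 30 arrays gave log2 values (limma 3.58.1, R 4.3.3). Control spots and outlier spots were left out. Tested were 13077 probes at least 10% brighter than the 95th percentile of the negative controls on 6 or more arrays. Each probe was tested with lmFit and eBayes, two-sided, Benjamini-Hochberg over all of them, on the groups compared only (all 30 arrays for the difference between the cortisol effects). Exact permutation tests of the means (all splits, in R) and permutations of correlations (numpy 2.4.6) are unadjusted unless stated. Scripts were tested on simulated data. Replicates were separate animals of a group.

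Arrays lay on 4 slides, with both treatments on each. Median foreground was 130 to 234 units per array and median background 34 to 46; 69.4% to 82.1% of spots were well above background, and the number of arrays limits the precision. Names came from the array annotation and the RefSeq gene table (ARS-UI_Ramb_v3.0), which named 1376 of the probes (9.17%). The genes named are the 5 members, the genes of the pathway lists that have a named probe, some marker genes, and named genes most like each member over the arrays. Members and lists were chosen with earlier results of these data known. The alternatives were other scalings and filters, array weights, slide or replicate blocks and leaving out each animal. No genome coordinates are given because no genome was used. In the ranking of genes by likeness, 1 gene is not reported here.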

Additional observations from a re-analysis of the deposited data

Results flagged for a closer look

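Among the 52 sets of a probe and a group, 3 held an animal whose distance to the nearest animal was large for the range of its group, where chance gives about 1 in 20. CORT fetus 5 was the highest for FLT1 C at 8.67, the next animal being at 7.73. CORT lamb 8 was the highest for TIE1 probe 1 at 8.49, with the next at 8.18. Control fetus 1 was the lowest for PECAM1 at 12.01, with the next at 12.36. All values are log2 intensities.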

How the results depend on the processing

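NOS3, FLT1 C, KDR B1 and KDR B2 passed the adjusted test for age under every alternative and without any 1 animal. KDR A2 lost it under the scanner software's intensity (-0.43), cyclic loess (-0.48), slide as a random block (-0.48) and the replicate block (-0.56), and without Control fetus 1, 3, 4, 5, 6 or 7 or Control lamb 1, 3, 4 or 6. TIE1 probe 2 gained it without Control lamb 3. The FLT1 B2 value turned to 0.32 under 75th percentile scaling, and is not read as a change because 0 of 7 Control lambs and 1 of 8 Control fetuses had the probe well above background. That scaling also moved the median of all probes to 0.28 in CORT over Control fetuses. The causes were not tested. In CORT over Control lambs the probes past the unadjusted threshold numbered 3, but 1 under 75th percentile scaling, 1 with all 30 arrays in one fit, and 2 to 5 without 1 animal. FLT1 A1 lost its place without Control lamb 6 or CORT lamb 4, and PECAM1 without Control lamb 1, 2 or 4 or CORT lamb 5, 6, 7 or 8. KDR A1 gained one without Control lamb 2, 5 or 7 or CORT lamb 2 or 9, KDR A2 without Control lamb 2 or 7 or CORT lamb 9, and FLT1 B1 without Control lamb 3. FLT1 C kept its place without each animal in turn. For the difference between the cortisol effects the number was 0, but 1 under 75th percentile scaling and 0 to 2 without 1 animal. Without 1 animal, 6 to 8 of the 13 probes passed the adjusted and 7 to 9 the unadjusted test for age, and 4985 to 5475 probes did in all. The main tests did not pair animals by replicate number. The correlation of the deviations of same-numbered animals was between -0.0626 and 0.412 in lambs and between -0.191 and 0.413 in fetuses. Between Control lambs and Control fetuses of the same number it was -0.226 to 0.243. Whether the numbers pair animals within an age was not tested. With the replicate block FLT1 C in lambs was at 0.25 and PECAM1 at 0.29, 1 probe passed unadjusted for the difference between the cortisol effects, and 1 probe of the whole array passed for fetuses, where 0 to 1 did without 1 animal. Other counts were unchanged at 0. Dim FLT1 probes are limited by their signal over background.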
